A study of Mus musculus with 3 samples.

Results

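The miR-17-92 and miR-106b-25 clusters are a pair of related microRNA (miRNA) loci, and the Ago2 peaks over them were examined here. The members were named by gene: the hairpins Mir17, Mir18, Mir19a, Mir20a, Mir19b-1 and Mir92-1 with their host transcript Mir17hg, and the hairpins Mir106b, Mir93 and Mir25. These 10 genes include 9 hairpins, out of 2202 miRNA genes annotated in GENCODE M21. HITS‐clip was performed on untreated N2A cells, an established mouse neuroblastoma line, and 3 replicate libraries formed 1 group with no control group. Ultraviolet light crosslinked proteins to RNA in the cultures, an antibody against Ago2 pulled down the protein, and the attached RNA was sequenced. The libraries held 711377, 498071 and 829936 peaks in replicates 1, 2 and 3. Read depth was unknown, because the deposited table lists intervals without counts, so the absence of a peak does not show that Ago2 was absent. Nothing states that the replicates were separate cultures, and the spread between them may therefore be technical. In such bulk samples fewer cells of a type and less RNA per cell cannot be told apart.

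Both clusters are transcribed as long precursors, from which Drosha and Dgcr8 cut hairpins and Dicer then cuts a pair of mature arms. One arm of a hairpin is usually kept by an Argonaute protein, where bases 2 to 8 of the miRNA, the seed, pair with target transcripts. The miR-17-92 cluster is known as a target of Myc and as an oncogene, acts in neural progenitors and neuroblastoma, and represses inhibitors of the cell cycle and of survival signalling. Peaks over a miRNA locus can come from the mature miRNA held by Ago2 or from precursor RNA, and a peak interval alone does not separate them.

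The hairpins are shown first, because each peak described later is placed on them. They come from RefSeq on GRCm38.p6, run 5′ to 3′, and have the annotated mature arms in capitals.
Mir17: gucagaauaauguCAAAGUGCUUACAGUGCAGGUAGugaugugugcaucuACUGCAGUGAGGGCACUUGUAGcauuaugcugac
Mir18: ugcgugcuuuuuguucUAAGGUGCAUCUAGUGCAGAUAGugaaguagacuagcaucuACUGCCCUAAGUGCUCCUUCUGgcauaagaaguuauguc
Mir19a: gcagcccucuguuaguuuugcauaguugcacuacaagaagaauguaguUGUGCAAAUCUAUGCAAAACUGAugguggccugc
Mir20a: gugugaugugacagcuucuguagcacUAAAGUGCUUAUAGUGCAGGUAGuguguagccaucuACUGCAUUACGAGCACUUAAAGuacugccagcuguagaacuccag
Mir19b-1: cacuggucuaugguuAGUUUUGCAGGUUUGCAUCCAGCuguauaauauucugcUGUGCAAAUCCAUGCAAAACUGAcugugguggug
Mir92-1: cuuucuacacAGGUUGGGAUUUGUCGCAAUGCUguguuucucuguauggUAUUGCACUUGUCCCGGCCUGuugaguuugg
Mir106b: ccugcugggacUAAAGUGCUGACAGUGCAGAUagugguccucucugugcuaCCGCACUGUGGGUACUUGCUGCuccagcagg
Mir93: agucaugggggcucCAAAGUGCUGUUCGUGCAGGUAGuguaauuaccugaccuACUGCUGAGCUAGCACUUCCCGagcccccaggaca
Mir25: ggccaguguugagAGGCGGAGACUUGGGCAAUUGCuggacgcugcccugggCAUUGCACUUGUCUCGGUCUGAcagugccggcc

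The first 6 hairpins lie on the plus strand of chromosome 14 in GRCm38, inside exon 2 of Mir17hg. Mir17hg spans chr14:115042879-115046727 and has an exon 1 of 79 nt, an intron of 313 nt and an exon 2 of 3457 nt. Mir17 lies at chr14:115043671-115043754, Mir18 at chr14:115043851-115043946 and Mir19a at chr14:115044000-115044081. Mir20a follows at chr14:115044157-115044263, Mir19b-1 at chr14:115044305-115044391 and Mir92-1 at chr14:115044427-115044506. The other 3 hairpins lie on the minus strand of chromosome 5, within intron 13 of Mcm7, a gene for a subunit of the replicative helicase that spans chr5:138164583-138172422. Mir106b is the first of them in transcription, at chr5:138165737-138165818, then comes Mir93 at chr5:138165523-138165610 and Mir25 at chr5:138165321-138165404.

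The guide arms of the clusters, 9 of the annotated arms, fall into 4 seed families and are printed from RefSeq with the seed in capitals. Their partner arms carry other seeds.
miR-17-5p: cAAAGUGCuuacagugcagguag
miR-20a-5p: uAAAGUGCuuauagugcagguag
miR-93-5p: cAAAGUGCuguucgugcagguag
miR-106b-5p: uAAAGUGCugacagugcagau
miR-18a-5p: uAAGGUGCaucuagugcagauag
miR-19a-3p: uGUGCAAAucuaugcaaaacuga
miR-19b-3p: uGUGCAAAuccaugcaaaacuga
miR-25-3p: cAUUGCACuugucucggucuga
miR-92a-3p: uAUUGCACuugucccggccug

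The miR-17 family has members in both clusters, as has the miR-25/92 family. Counted base by base from the 5′ end, miR-17-5p was identical to miR-20a-5p at 21 of 23 positions, to miR-93-5p at 19 of 23 and to miR-106b-5p at 18 of 21. The sequences of miR-19a-3p and miR-19b-3p were identical at 22 of 23 positions, and those of miR-25-3p and miR-92a-3p at 18 of 21. A paralogous cluster on the X chromosome (miR-106a-363, with Mir106a, Mir18b, Mir20b, Mir19b-2, Mir92-2 and Mir363) carries the same families and served as the closest comparison.

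Peaks were found on nearly every hairpin of both clusters. In each of the 3 libraries 8 of the 9 hairpins were overlapped by a peak on their own strand, and 7 of the 9 (77.8%) had one in all libraries. Over all 2202 annotated hairpins the share with a peak in all libraries was 8.4%, and over the 479 hairpins with a same-strand neighbour within 10 kb it was 17.3%. Among all hairpins 64.2% had no peak in any library, whereas none of the 9 was without one. The hairpins with a peak in all libraries were Mir17, Mir18, Mir19a, Mir20a, Mir19b-1, Mir93 and Mir25.

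Mir92-1, the last hairpin of its cluster, had no peak in replicates 1 and 2 and 2 in replicate 3. Mir106b had 1 peak in replicate 1, 2 in replicate 2 and 0 in replicate 3. Different libraries thus lacked the 2 hairpins. Mir19b-1 had 1 peak in each library, but in replicate 3 the peak reached into 18.4% of the hairpin from the 3′ side.

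The called intervals seem to carry 30 nt of padding at either end, so the stretch left without the padding, called the centre here, was also set against the hairpins. The 9 hairpins had a centre on 8, 8 and 7 of them in replicates 1, 2 and 3, and 6 had one in all libraries, against 7.95% of all hairpins. The hairpin lost by this rule was Mir19b-1, which no centre touched in replicate 3. On the opposite strand, 4 of the 9 hairpins had a peak in any library, against 13.6% of all hairpins. These 4 were Mir19a, Mir20a, Mir19b-1 and Mir92-1, and all lay under 1 peak of replicate 2 that was 4683 nt long.

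**Figure D1:**
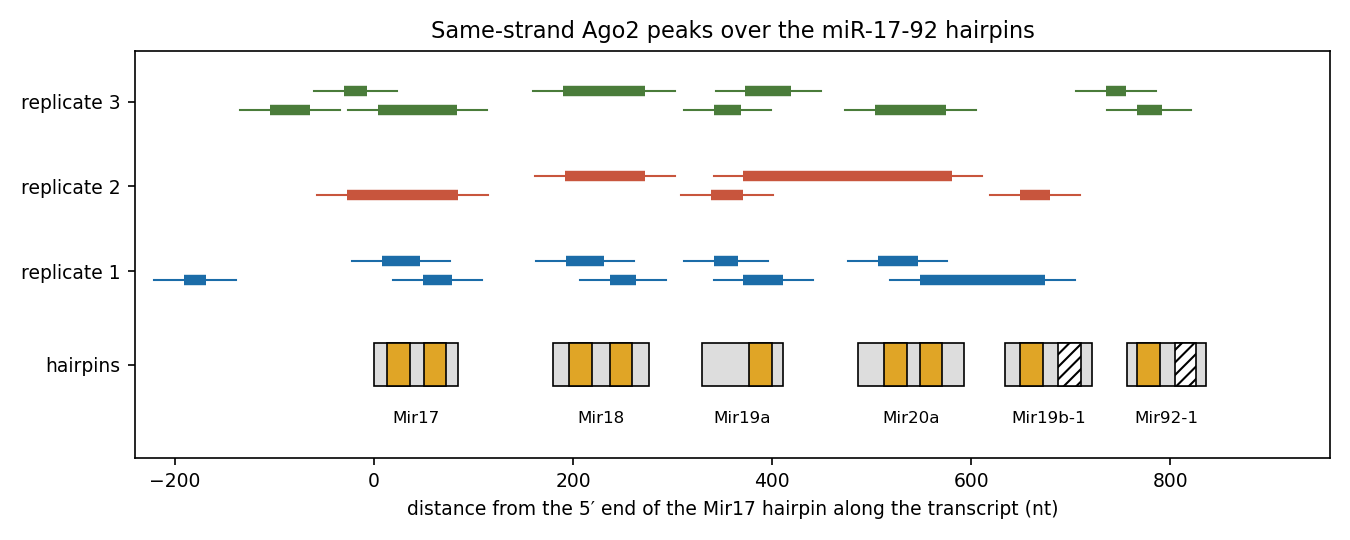
Same-strand peaks of each library over the miR-17-92 hairpins, by distance from the 5′ end of Mir17 in nt. Thin lines are deposited peaks, thick lines their centres, grey boxes hairpins, filled boxes mature arms found once in the genome and hatched boxes arms found at 2 places. The centres sit on the arms of Mir17, Mir18, Mir19a and Mir20a in all 3 libraries, and Mir92-1 has a centre in replicate 3 alone.

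The mature arms were then compared one by one. RefSeq lists 17 arms for the 9 hairpins, since for Mir19a the table gives the 3p arm alone. An arm was counted when a centre covered at least 15 nt of it. Of the 17 arms, 12, 14 and 12 were counted in replicates 1, 2 and 3, and 10 (58.8%) in all libraries. Over all 1738 annotated arms the share counted in all libraries was 10.8%.

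In the miR-17-92 cluster the arms counted in all libraries were miR-17-5p, miR-17-3p, miR-18a-5p, miR-18a-3p, miR-19a-3p, miR-20a-5p and miR-20a-3p. In the miR-106b-25 cluster they were miR-93-5p, miR-93-3p and miR-25-3p. Both arms of Mir17, Mir18, Mir20a and Mir93 were thus under centres in every library, the arm usually kept and its partner alike. Every arm that was counted lay under the centre over its whole length.

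The other arms differed between libraries. The 5p arm of Mir19b-1 and miR-106b-5p were counted in replicates 1 and 2 and not in replicate 3. The arm miR-25-5p was counted in replicates 2 and 3, miR-106b-3p in replicate 2 alone and miR-92a-1-5p in replicate 3 alone. The centre over miR-92a-1-5p began exactly at the 5′ end of the arm and ran 2 nt past its 3′ end.

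The 2 arms that no centre touched were miR-19b-3p and miR-92a-3p, which are the guide strands of Mir19b-1 and Mir92-1. Both sequences occur at 2 places in the genome, once in Mir17hg and once in the paralogous cluster, whereas the other 15 arms occur once. The 15 arms with a single match were all counted in at least 1 library. Over all annotated arms, those of more than 1 locus were counted in all libraries in 0 of 118 cases (0%) and in at least 1 library in 5 cases (4.24%). The 0 cases allow a share of up to 2.54% by counting error alone if the arms are independent. Copies of 1 sequence are not, so this limit is too low. Arms of 1 locus were counted in all libraries in 187 of 1620 cases (11.5%) and in at least 1 library in 47.8%. How reads that match more than 1 place were handled is not given in the sources used here, and its part in these counts was not tested. The empty 3p arms of Mir19b-1 and Mir92-1 therefore give no measure of miR-19b-3p or miR-92a-3p.

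**Figure D2:**
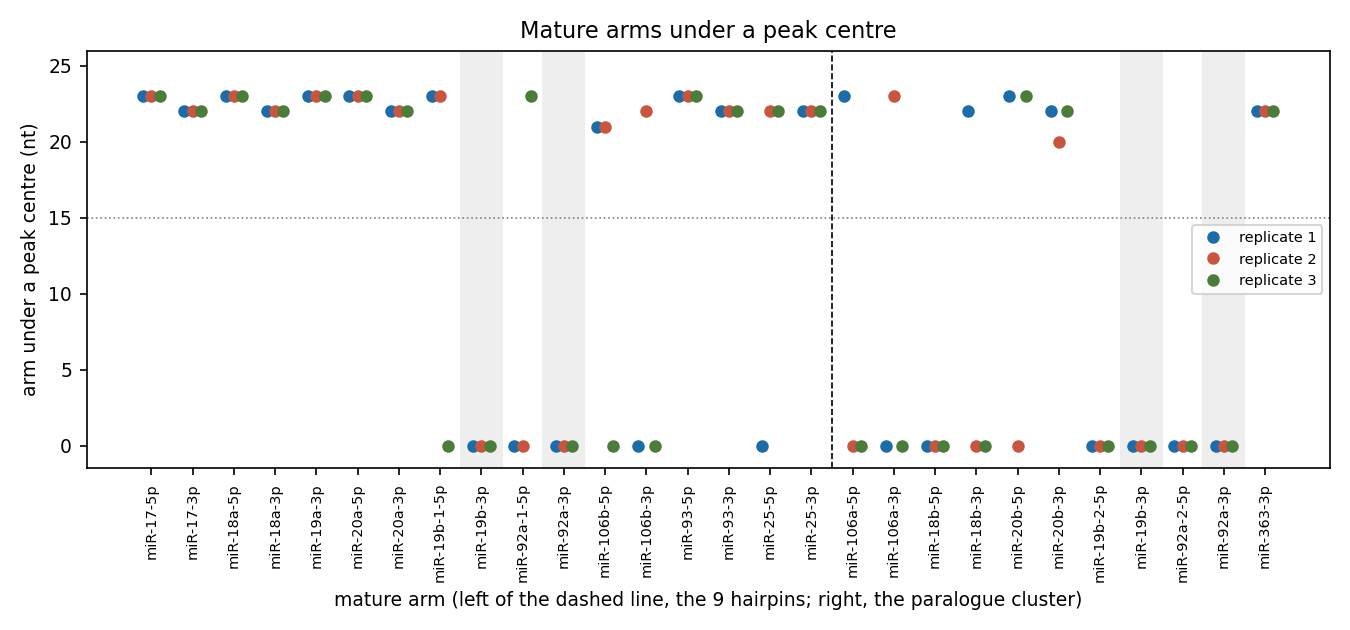
Length of each mature arm that lay under a peak centre (nt) in each library, in genome order within clusters. The dotted line is the minimum of 15 nt, the dashed line separates the 9 hairpins from the paralogous cluster, and the shaded arms match the genome at 2 places. Arms are covered over 20 to 23 nt or not at all, and the shaded arms are at 0 in all libraries.

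Mir19a had a second centre in every library, on the 5′ side of the hairpin where the table lists no arm. It spanned chr14:115044012-115044036 in replicate 1, chr14:115044009-115044041 in replicate 2 and chr14:115044012-115044039 in replicate 3. The starts in replicates 1 and 3 were the same base, and that in replicate 2 lay 3 nt before it. The stretch common to all libraries was 25 nt long, bases 13 to 37 of the hairpin, and ended 11 nt before miR-19a-3p. It is the side of the stem that pairs with the 3p arm, and is shown in capitals in the same hairpin.
Mir19a, 5′ side: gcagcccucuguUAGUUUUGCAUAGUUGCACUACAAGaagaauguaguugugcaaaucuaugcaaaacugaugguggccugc

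The way centres divided the arms differed between libraries. In replicate 1, 10 of 11 centres with an arm held 1 arm, so that miR-17-5p and miR-17-3p, for example, had a centre each. In replicate 2, 5 of 9 centres held 1 arm and 4 held more. A single centre of replicate 2 ran from miR-19a-3p over both arms of Mir20a, 3 arms in all. In replicate 3, 4 of 8 centres held 1 arm.

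Where a centre held a single arm, its ends lay close to those of the arm. For 19 such centres the median start was 5 nt before the 5′ end of the arm (range 0 to 10) and the median end 5 nt past its 3′ end (range 0 to 19). For the 1133 such centres over all annotated arms the medians were 0 and 3 nt. Centres over these hairpins thus ran a little further on both sides.

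Several ends recurred to the base. The centre over miR-93-3p ended at chr5:138165531 in all 3 libraries, 5 nt past the 3′ end of the arm. The centre over miR-19a-3p began at chr14:115044042 in replicates 1 and 2 and 2 nt later in replicate 3. The centre over miR-25-5p began at the 5′ end of the arm in both libraries that had it, and in replicate 3 it spanned the 22 nt of the arm exactly.

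**Figure D3:**
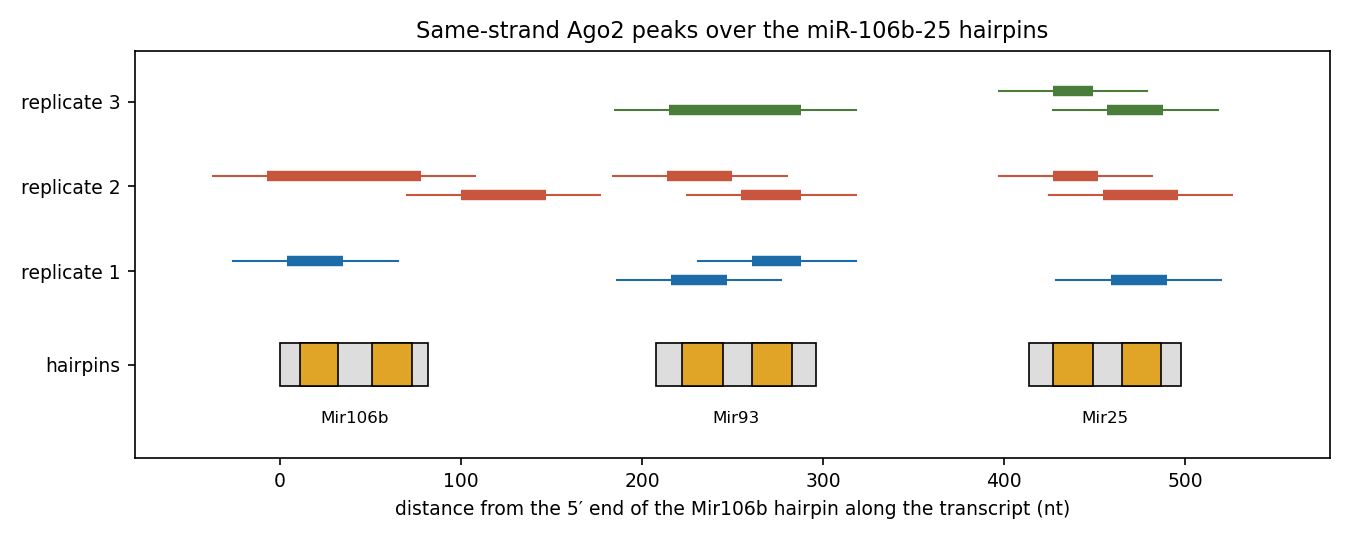
Same-strand peaks of each library over the miR-106b-25 hairpins, by distance from the 5′ end of Mir106b along the transcript in nt. Lines and boxes are drawn as in the map of the miR-17-92 hairpins. Mir93 and Mir25 have centres in all 3 libraries, Mir106b in replicates 1 and 2, and 1 centre of replicate 2 lies in a spacer.

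The authors' score, whose unit is not stated, set these peaks apart from most others. It was 60 for nearly every peak of the table, and below 60 for 0.705% of all 2039384 peaks. Of the 28 peaks with an arm of the clusters under their centre, 24 (85.7%) had a score below 60, the lowest 55.2 over both arms of Mir106b in replicate 2. Of the other 30 peaks of the loci, including those within 1000 nt of Mir17hg, 2 (6.67%) did, and both were the 5′ side centres of Mir19a in replicates 2 and 3. Over any annotated arm of the genome 514 of 1254 peaks (41%) were below 60. By library 10 of 11, 8 of 9 and 6 of 8 peaks with an arm of the clusters were below 60, in replicates 1, 2 and 3. Why the score is lower there was not tested.

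Coverage was compared next between hairpins and the spacers between them, since both belong to the same precursor. The deposited peaks covered 83.7%, 88.4% and 78.7% of the bases of the 9 hairpins in replicates 1, 2 and 3. They covered 36.9%, 66.4% and 46.5% of the spacers. Hairpins were covered more in every library, and the lowest hairpin value lay above the highest spacer value. The difference was 33.6 ± 12.4 percentage points (mean ± SD, n = 3; exact sign-flip permutation test, two-sided, p = 0.25, the smallest that 3 libraries can give).

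With the centres in place of the whole peaks, less of the spacers was covered in every library. The centres covered 55.8%, 72.8% and 57% of hairpin bases and 7.54%, 22.4% and 5.15% of spacer bases in replicates 1, 2 and 3. The difference was 50.2 ± 1.77 percentage points (n = 3; exact permutation p = 0.25). Of the 7 spacers, those between Mir17 and Mir18, between Mir18 and Mir19a and between Mir93 and Mir25 held no centre in any library.

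The spacer bases under centres came from few peaks. The 75 nt between Mir19a and Mir20a lay under 1 centre in replicate 2, and the 41 nt between Mir20a and Mir19b-1 under 1 centre in replicate 1. In replicate 2 a centre of 47 nt lay between Mir106b and Mir93. No spacer base of either cluster was under a centre in all 3 libraries, whereas 261 of 536 hairpin bases (48.7%) in the miR-17-92 cluster and 87 of 254 (34.3%) in the miR-106b-25 cluster were.

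The hairpins also differed among themselves. Centres covered 79.8% and 94% of Mir17 in replicates 1 and 3 and the whole of it in replicate 2, and 66.7%, 83.3% and 85.4% of Mir18 in replicates 1, 2 and 3. In Mir93 the shares were 65.9%, 78.4% and 83%. Those of Mir19a were 79.3%, 89% and 80.5%, and those of Mir20a 79.4%, 88.8% and 67.3%. These 5 hairpins were covered over most of their length in every library.

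Of the 9 hairpins Mir106b varied most, with 37.8%, 95.1% and 0% under centres in replicates 1, 2 and 3. Mir19b-1 had 46%, 34.5% and 0%, and Mir92-1 had 0%, 0% and 31.2%. Mir25 had 36.9%, 78.6% and 63.1%, and its lower value in replicate 1 went with a missing 5p arm.

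The paralogous cluster on the X chromosome was covered less in each library. Of its 6 hairpins 4, 3 and 2 had a peak in replicates 1, 2 and 3, and 2 (33.3%), Mir20b and Mir363, had one in all libraries. Mir19b-2 and Mir92-2 had none in any library. The peaks covered 54.2%, 35.8% and 28.7% of its hairpin bases. The 9 hairpins of both other clusters exceeded this by 44 ± 12.7 percentage points (n = 3; exact permutation p = 0.25). The 3 pooled library values did not overlap, but single hairpins did: Mir92-1 was uncovered in replicates 1 and 2 and Mir106b in replicate 3, while Mir20b of the paralogous cluster was covered whole in replicates 1 and 3.

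Arms of the same families behaved differently at the X-linked locus. The arm miR-106a-5p, identical to miR-17-5p at 22 of 23 positions, was counted in replicate 1 alone, and there under a peak of 1808 nt. The arm miR-20b-5p was counted in replicates 1 and 3, and miR-18b-5p in none. Its miR-20b-3p and miR-363-3p were counted in all libraries. In total 2 of the 11 arms were counted in all libraries and 5 in none, 2 of which were the shared miR-19b-3p and miR-92a-3p.

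**Figure D4:**
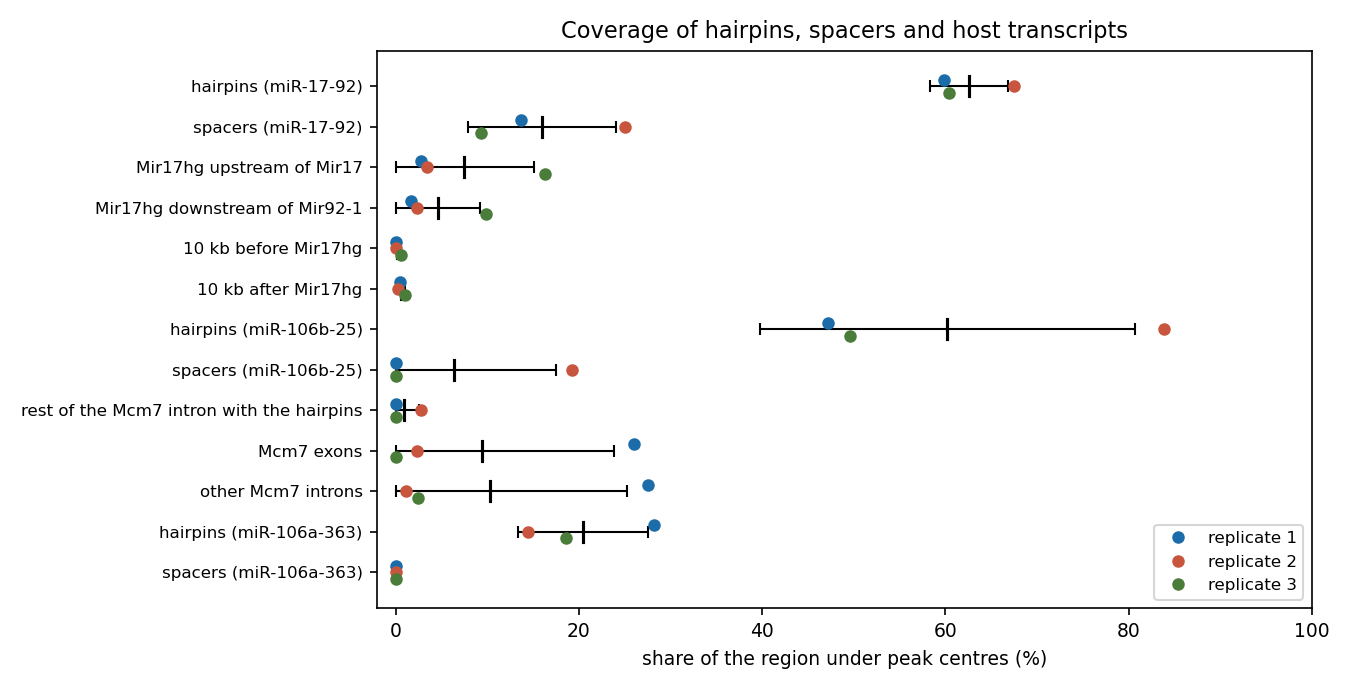
Share of the bases of each region under peak centres (%), with 1 point per library, the mean as a vertical tick and the SD as a bar (n = 3), which is stopped at 0 where it would run below. The hairpins of both clusters lie between 47.2% and 83.9%, above their spacers and the rest of their hosts in every library.

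Mir17hg carried peaks outside the hairpins too. It had 11, 7 and 17 same-strand peaks in replicates 1, 2 and 3, or 3.03 ± 1.31 per kb. Of 5854 long intergenic non-coding RNA genes, 31.1% had a peak in all libraries, as Mir17hg had, and the median gene had 0.083 peaks per kb. Only 9 of them (0.154%) exceeded the density of Mir17hg. Densities here and for Mcm7 below were taken over the whole gene span, introns included. The genes compared were not matched for length or intron share. Peaks that touched no hairpin numbered 3, 2 and 9 in replicates 1, 2 and 3. Without the hairpins and the peaks over them the density of Mir17hg was 1.41 ± 1.14 per kb, and 30 of the genes (0.512%) had more. This rested on replicate 3, without which the density was 0.755 per kb and 70 of the genes (1.2%) had more.

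Of the peaks that touched no hairpin, 1, 0 and 3 lay before Mir17 in replicates 1, 2 and 3, and 2, 2 and 6 lay after Mir92-1. Replicate 3 was highest on both sides. These peaks covered 1031 nt of Mir17hg in at least 1 library and 136 nt in 2, and no base in all 3. Their centres covered 438 nt and shared no base between libraries.

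Among the shared bases, peaks of replicates 2 and 3 met near the 3′ end of the transcript. The peaks at chr14:115046497-115046577 and chr14:115046614-115046704 in replicate 2 alternated with those at chr14:115046450-115046534 and chr14:115046552-115046647 in replicate 3. In replicates 1 and 3, peaks at chr14:115045657-115045735 and chr14:115045598-115045694 overlapped at their ends. The 10 kb before Mir17hg held 0, 0 and 2 peaks and the 10 kb after it 2, 1 and 3, so that peaks became sparse at the ends of the annotated transcript.

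Mcm7, the host of Mir106b, Mir93 and Mir25, had 6, 9 and 6 peaks in replicates 1, 2 and 3, or 0.893 ± 0.221 per kb. Of 21938 protein-coding genes, 64.4% had a peak in all libraries, and their median density was 0.171 per kb, with 10.4% above Mcm7. Of these peaks, 4, 6 and 3 lay on the hairpins. Without the hairpins the density was 0.352 per kb. The exons had 2, 2 and 0 peaks and differed between libraries. In replicate 1 a peak of 1957 nt at chr5:138168228-138170184 crossed exons 3 to 7, and a peak at chr5:138172381-138172461 overlapped the 5′ end of exon 1. In replicate 2 the exons with peaks were exon 7 and exon 15, and in replicate 3 there was none.

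Elsewhere in Mcm7, a stretch of intron 6 recurred. It lay under a peak at chr5:138168505-138168609 in replicate 2, at chr5:138168519-138168602 in replicate 3 and inside the 1957 nt peak of replicate 1. It was the one place of either host outside hairpins where centres of all 3 libraries met, over 24 nt. In the intron that holds the hairpins, the bases outside hairpins and spacers were under centres over 0%, 2.8% and 0% in replicates 1, 2 and 3.

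The seed matches of the clusters were examined in 3′UTR peaks, where Ago2 meets the transcripts that miRNAs pair with. For each family the density of the 7-base match within same-strand peaks was divided by that outside peaks in the same 3′UTRs, and given as log2. Each library used the 3′UTRs with a peak in it, 7321, 9393 and 10174 of 21022 annotated ones in replicates 1, 2 and 3. The matches are GCACTTT for the miR-17 family, GCACCTT for miR-18, TTTGCAC for miR-19 and GTGCAAT for miR-25/92, read on the transcript strand. Of all 16384 possible 7-mers, 27.3% were denser in peaks in all 3 libraries, and so were all 4 matches. The matches of miR-17 and miR-19 share bases where they overlap, so these families are not independent.

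The miR-25/92 match had log2 density ratios of 0.61, 1.07 and 0.71 in replicates 1, 2 and 3, a mean of 0.80 ± 0.24. The miR-17 match had 0.56, 0.96 and 0.65, a mean of 0.73 ± 0.21. The miR-19 match had 0.34, 0.84 and 0.44, a mean of 0.54 ± 0.27. For 7-mers with the same number of A or T the median was -0.01, below each of these values, and replicate 2 was the highest for each family (exact sign-flip permutation test against 0 over 3 libraries, p = 0.25 for each, the smallest possible).

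The miR-18 match stayed near 0, with log2 ratios of 0.01, 0.07 and 0.04 and a mean of 0.04 ± 0.03 (exact permutation p = 0.25). The arm miR-18a-5p itself was under a centre in all libraries. The median of 7-mers with the same number of A or T was -0.18 here, and of all 7-mers -0.06. The sign of the miR-18 value depended on the setting: it was -0.016 for peaks of at most 1000 nt and -0.14 for 6-base matches, but 0.44 for matches followed by an A. In every library the miR-18 family was the lowest of the 4.

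**Figure D5:**
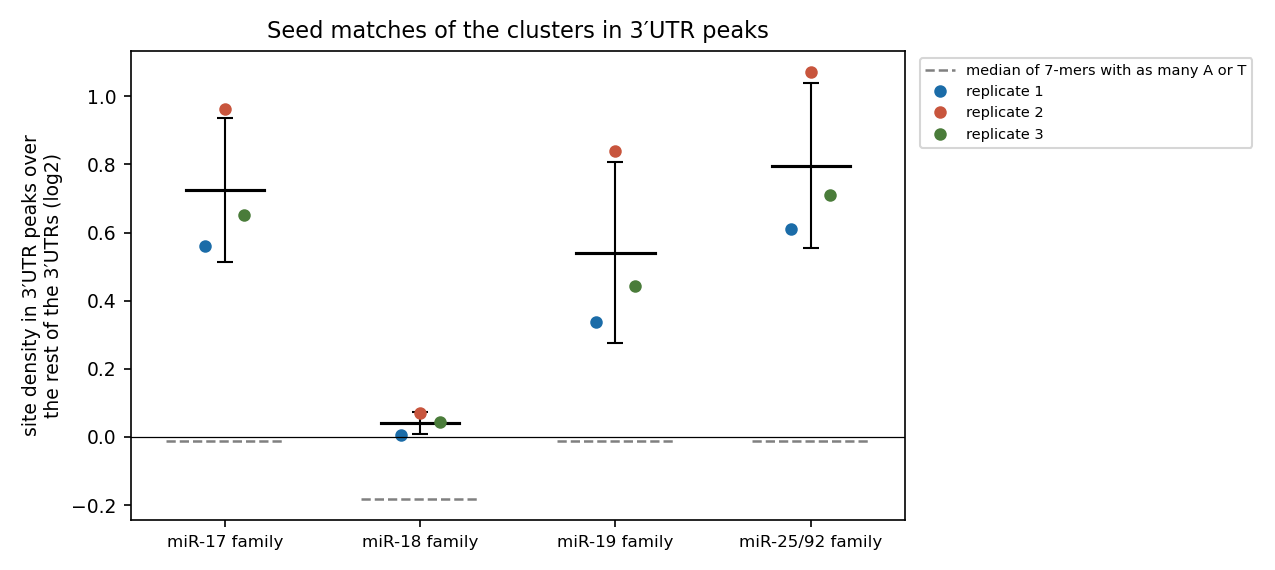
Log2 ratio of the seed match density within 3′UTR peaks to that outside peaks in the same 3′UTRs, with 1 point per library, the mean as a horizontal line and the SD as a bar (n = 3). Dashed lines give the median of 7-mers with as many A or T. The miR-17, miR-19 and miR-25/92 families lie between 0.34 and 1.07 and the miR-18 family between 0.01 and 0.07.

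Genes known as targets of the clusters were listed to see where the matches lay. Of 25 such genes, 22, 24 and 25 had a 3′UTR peak in replicates 1, 2 and 3, and 21 (84%) in all libraries, against 23.9% of all genes with a 3′UTR. The genes of the list have long 3′UTRs, with a median of 2131 nt against 961 nt for all genes, and long 3′UTRs have more room for peaks. The genes that lacked a peak in 1 library were Rbl2, Thbs1 and Tnfaip3 in replicate 1 and Ctgf in replicate 2.

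A seed match of the clusters was present in 24 of the 25, the exception being Smad4. The listed genes had longer 3′UTRs and more often a 3′UTR peak than all genes, as given above. The next comparison was not matched for either. In 6 of the 24 genes a match lay under a peak in all 3 libraries, against 4.44% of the 6065 genes with a match. Of the 56 matches of the list, 7 lay under a peak in all libraries, with no share over all matches counted beside them. All 7 were in the 6 genes. They were Cdkn1a, which encodes the cell cycle inhibitor p21, Tgfbr2, a receptor of TGF-beta, Rbl1, a relative of the retinoblastoma protein, Socs1, an inhibitor of cytokine signalling, App, the amyloid precursor protein, and Mapk14, the p38 kinase.

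The sites of these genes in GRCm38 are printed on the transcript strand with the match in capitals, as DNA, so that the base that follows each match can be seen.
Cdkn1a, miR-17 family: cctcagacctgaataGCACTTTg
Tgfbr2, miR-17 family: cagccaataacgtttGCACTTTa
Tgfbr2, miR-19 family: caacagccaataacgTTTGCACt
Rbl1, miR-17 family: ctttgcctgatcaaaGCACTTTt
Socs1, miR-19 family: catattcccagtatcTTTGCACa
App, miR-17 family: ccctgttcatcataaGCACTTTt
Mapk14, miR-17 family: ttttctgaattttgaGCACTTTg

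The match lay at chr17:29099829-29099835 in Cdkn1a, at chr2:157147477-157147483 in Rbl1 and at chr16:10783933-10783939 in Socs1. In App it lay at chr16:84954596-84954602 and in Mapk14 at chr17:28747842-28747848. The miR-17 match of Tgfbr2 at chr9:116090074-116090080 overlapped its miR-19 match at chr9:116090077-116090083 by 4 bases, so both lay under the same peaks. In Tgfbr2 the peaks covered 485, 213 and 508 of the 6085 nt of the 3′UTR in replicates 1, 2 and 3, and in Rbl1 65, 816 and 705 of 1613 nt.

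Bcl2l11, which encodes the pro-apoptotic protein Bim, had 5 matches, of which 1 for miR-17 was under a peak of replicate 3 and 2 for miR-25/92 under peaks of replicate 1. Across the list, 22 genes had a match under a peak in at least 1 library. The share over all genes was not counted for this, so it does not set the list apart. Replicate 1 covered less of 3′UTRs than the others, 2069 kb against 5489 and 5437 kb, and its part in the losses was not tested.

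Genes that act on the clusters or on the processing of their hairpins were listed apart. Of 15, which include E2f1, E2f2 and E2f3 from the target list, 11 had a peak there in every library, against the 23.9% of all genes given above, and their median 3′UTR was 1574 nt against 961 nt. Those without one in 1 library were Drosha and Ago1 in replicate 1, Hnrnpa1 in replicate 2 and Dgcr8 in replicate 3. Myc and Myb, activators of miR-17-92, carried such a peak in each library and no seed match. Mycn, the Myc relative amplified in neuroblastoma, had 3 matches, 1 of them for miR-19 and under peaks in replicates 2 and 3.

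Ago2 was the gene of this list with a match under a peak in all libraries, a miR-17 match at chr15:73096835-73096841, far into a 3′UTR of 11064 nt. It was 1 of 9 listed genes with a match, beside the 4.44% of all genes with a match, again not matched for 3′UTR length or peaks. Its peaks covered 2865, 8942 and 8327 nt of that 3′UTR in replicates 1, 2 and 3.

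The neuroblastoma label was set against marker genes. Of 14 neuronal and neuroblast markers, 11 had an exon peak in all libraries, against 42.8% of protein-coding genes, and the catecholamine enzyme Th had none in any. Of markers of other cells, 2 of 5 myeloid, 2 of 5 oligodendrocyte, 2 of 3 astrocyte, 0 of 4 erythroid and 0 of 3 hepatocyte genes had one in all libraries. In replicates 1, 2 and 3 an exon peak was found for 2, 3 and 3 myeloid, 3, 3 and 4 oligodendrocyte, 3, 3 and 2 astrocyte, 2, 0 and 2 erythroid and 1, 0 and 2 hepatocyte genes.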

How the data were processed

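N2A cells under basal conditions were sampled in 3 replicates of 1 group. The submitters' processing notes name FastQC, cutadapt, STAR and build mm10, without roles. The peak caller, its threshold and the treatment of reads with several matches are not given in the sources used here. The authors deposited 1 table for all samples, which lists the peaks called in each sample with a score of unstated unit. The score was 60 for 98.9%, 99.3% and 99.6% of peaks in replicates 1, 2 and 3. All 8091 scores below 60 in replicate 1 were whole numbers, against 74 of 3377 and 95 of 2906 in replicates 2 and 3. There were 0 further columns of values per sample.

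Starts were read as counted from 0 and peaks as padded by 30 nt on each side. Peaks over hairpins, arms, spacers and hosts were taken on the same strand from GENCODE M21 (GRCm38) and RefSeq arms. The 18 arms planned were 17 in that table. A 3′UTR was the longest of a gene, without the stop codon. Densities used a pseudocount of 0.5. Coverage and density were compared over libraries with exact sign-flip permutation tests, whose smallest p is 0.25. Depth is unknown, and the limit given for a count of 0 arms covers counting error only and treats copies of 1 sequence as separate arms. The arm rule was tested on simulated data, where 200 of 200 arms given peaks were counted, and 0 others. Those peaks were laid exactly on the arms with the assumed padding, among far fewer random peaks than the libraries hold and no long ones. The simulation thus checked the counting alone and gives no rate of false counts in these data. Alternatives covered padding, strand, peak width, overlap, matches and libraries. Members and lists were chosen with earlier results of these data known. All members, both hosts, the paralogues, and listed genes with a match under a peak in all libraries were to be named; Bcl2l11 and other listed genes were named after their values were seen. Python 3.11.15, numpy 2.4.6, pandas 2.3.3 and matplotlib 3.10.9 were used.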

Additional observations from a re-analysis of the deposited data

How the results depend on the processing

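Of 107 recomputed values, 99 kept the reported direction or, where no test was made, stayed within 1.5 times a count or 1 SD of a value, 5 moved and 3 reversed. Sizes could still change: hairpins extended by 20 nt raised the excess over spacers to 56.8 percentage points. Regions covered in all libraries, taken once instead of per library, gave log2 densities of 1.27 for miR-25/92 and 0.82 for miR-19. With 6-base matches the density was 0.44 for miR-25/92 and 0.27 for miR-17, and with 8-base matches 1.2 for miR-25/92 and 0.44 for miR-18. Peaks trimmed by 30 nt gave 0.10 for miR-18. On the opposite strand no hairpin and no arm was counted in all libraries (0 and 0), and 2 known targets had a 3′UTR peak. Leaving out the hairpins gave 1.41 peaks per kb for Mir17hg and 0.352 for Mcm7, which follows from the peaks removed. The miR-18 density was -0.016 for peaks of at most 1000 nt, -0.021 for peaks of 86 to 200 nt and -0.14 for 6-base matches, and the cause was not tested.

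Leaving out each replicate gave 7 to 8 hairpins and 10 to 12 arms in all remaining libraries. The excess of hairpins over spacers was 27.1 to 39.5 percentage points and that over paralogous hairpins 39.8 to 51.3. Mir17hg had 2.34 to 3.64, or 0.755 to 1.81 outside its hairpins (a setting added after the data were seen), and Mcm7 0.765 to 0.957 peaks per kb, and 21 to 24 known targets had a 3′UTR peak. Mean log2 densities were 0.61 to 0.81 for miR-17, 0.02 to 0.06 for miR-18, 0.39 to 0.64 for miR-19 and 0.66 to 0.89 for miR-25/92.

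No paired analysis was possible because every sample belongs to 1 group, so no replicate number is shared between groups. The comparisons of regions were instead differences taken within each library. Read depth is unknown, peak intervals give no amount of a miRNA, and a test over 3 libraries cannot reach a p below 0.25.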

Other observations

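Replicate 3 had a short centre directly before 2 hairpins of miR-17-92. A centre of 23 nt at chr14:115043641-115043663 ended 7 nt before Mir17, and a centre of 20 nt at chr14:115044406-115044425 ended 1 nt before Mir92-1, in the spacer after Mir19b-1. Both peaks had a score of 60. In replicate 2 the centre over Mir17 began at chr14:115043644 and covered most of the same stretch before Mir17. No centre of replicate 1 touched either stretch, and none of replicate 2 the stretch before Mir92-1. No explanation was tested for these centres.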
